A study of Macaca mulatta with 12 samples.

Results

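Small RNAs of the intestine were compared with those of the other tissues of rhesus macaques (Macaca mulatta). The members are 4 of 12 sRNA-seq profiles, grouped by their labels. They are large intestine 1, large intestine 2, small intestine 1 and small intestine 2, and they were set against the 8 profiles of kidney (2), muscle (2), liver, lung, occipital lobe and spinal cord (1 each). This comparison and the lists of miRNAs used below were chosen with earlier results of these data known. The share of a list that was called is therefore no independent test. According to the labels, every sample came from wild-type macaques of 36 months that received no treatment. The tissues were collected from 2 animals, and neither the labels nor the methods say which animal gave which profile. They also do not give the segment of the intestine or the layers of its wall. All p-values therefore measure the spread between these profiles, which may be technical, and liver and lung have no second profile.

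MicroRNAs (miRNAs) are short RNAs that are cut from hairpin-shaped precursors (pre-miRNAs), of which either arm (5p or 3p) can give a mature miRNA. A mature miRNA recognises messenger RNAs mainly through its seed, the stretch of bases near its 5′ end, so that miRNAs with the same seed share many targets. The intestinal wall combines an absorptive and secretory epithelium, in which miR-192, miR-194, miR-215 and the miR-200 family are known to be abundant, with layers of smooth muscle, in which miR-143 and miR-145 are abundant, and with many immune cells and nerve cells. Since each profile comes from a whole piece of tissue, more cells of a type and more of a miRNA per cell cannot be told apart.

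The sequences on which the results turn are those listed for the study's pre-miRNAs, given 5′ to 3′ with the seed (bases 2 to 8) in capitals. The first set holds miRNAs that had more reads per 10000000 valid reads (RPTM) in all 4 intestinal profiles than in every other profile, together with mml-miR-192-5p and mml-miR-194-5p.
mml-miR-143-3p: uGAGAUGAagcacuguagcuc
mml-miR-145-5p: gUCCAGUUuucccaggaaucccuu
mml-miR-192-5p: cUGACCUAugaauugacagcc
mml-miR-215-5p: aUGACCUAugaauugacagac
mml-miR-194-5p: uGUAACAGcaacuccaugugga
mml-miR-375-3p: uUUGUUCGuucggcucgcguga
mml-miR-147b-3p: gUGUGCGGaagugcuucugcu
mml-miR-155-5p: uUAAUGCUaaucgugauaggggu

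mml-miR-192-5p and mml-miR-215-5p carry the same seed and share 19 of 21 positions. At most 0.76% of the reads of mml-miR-215-5p in a profile were also counted for another mature miRNA, a share that covers exact matches only. In the intestine the most abundant read of mml-miR-215-5p had the listed start. In liver, kidney 1, kidney 2 and occipital lobe it began 1 base later, with the seed GACCUAU, and made up 93.1%, 65.8%, 83.1% and 49.0% of the reads of mml-miR-215-5p. This later read differs in a single base from mml-miR-192-5p without its first base. In these profiles mml-miR-192-5p had 2984206, 649694, 670607 and 66416 reads, against 11536, 603, 1711 and 353 reads of mml-miR-215-5p. Whether the later reads are variants of mml-miR-192-5p was not tested. In the RefSeq annotation of T2T-MMU8v2.0, a build that was not used for the profiles, MIR143 is next to MIR145, MIR192 is next to MIR194-2, and MIR215 is next to MIR194-1 inside IARS2. MIR429 is next to MIR200A, and MIR200C is next to MIR141. MIR147B lies within COXFA4L3.

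The second set shows members of the epithelial miR-200 family, among which miR-200b is missing because it was not on the list used. Each is given as the read that was most abundant in at least 3 of the 4 intestinal profiles. These reads do not all begin where the listed miRNA begins.
mml-miR-200a-3p: uAACACUGucugguaacgauguu
mml-miR-141-3p: uAACACUGucugguaaagaug
mml-miR-200c-3p: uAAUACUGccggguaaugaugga
mml-miR-429-3p: uAAUACUGucugguaaaaccg

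The reads of mml-miR-141-3p shown here made up 90.1% to 94.3% of its reads in the 4 intestinal profiles and were the most abundant ones in all 12 profiles. Its listed sequence has the seed ACACUGU, whereas the reads have the seed AACACUG of mml-miR-200a-3p. For mml-miR-200c-3p the listed seed is AUACUGC and that of the reads is AAUACUG, which mml-miR-429-3p also carries. By their reads, the miRNAs shown therefore fall into 2 seeds that differ in a single base.

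The third set holds miRNAs that were lower in the intestine. The 3 miR-30 miRNAs have a common seed.
mml-miR-486-5p: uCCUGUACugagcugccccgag
mml-miR-30a-5p: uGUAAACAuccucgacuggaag
mml-miR-30d-5p: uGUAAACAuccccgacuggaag
mml-miR-30c-5p: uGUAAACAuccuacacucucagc
mml-miR-128a-3p: uCACAGUGaaccggucucuuuu

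The last set holds the miRNAs with the largest differences between small and large intestine. MIR196B lies between HOXA10 and HOXA9 in the same annotation.
mml-miR-31-5p: gGCAAGAUgcuggcauagcug
mml-miR-802-5p: cAGUAACAaagauucauccuugu
mml-miR-196b-5p: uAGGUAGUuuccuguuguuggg

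The 12 profiles held between 22118095 and 25579064 valid reads, and values are given as RPTM, on which scale 1 read stands for 0.391 to 0.452 RPTM. Between 51.8% and 64.3% of the reads of the intestinal profiles were assigned to mature miRNAs, against 35.9% to 68.4% elsewhere. The study's list of pre-miRNAs was read only in part, and miRNAs outside this part were not counted. Of its 1219 mature sequences, 773 had at least 1 read and 382 had reads in all 4 intestinal profiles. The 371 that reached an average of 5 RPTM with an SD no smaller than 1 over the profiles were tested.

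A single miRNA took a large share of the reads in the intestine, as another did in kidney. mml-miR-143-3p, which is known to promote the contractile state of smooth muscle, held 45.3% and 58.8% of the assigned reads in large intestine 1 and 2 and 46.0% and 49.9% in small intestine 1 and 2. Its share elsewhere ranged from 1.82% in occipital lobe to 32.0% in lung. It was the most abundant miRNA of all 4 intestinal profiles and of lung. In kidney 1 and 2, mml-miR-10b-5p held 54.1% and 51.2%, within the intestinal range of mml-miR-143-3p. The share of the most abundant miRNA was 45.3% to 58.8% in the intestine and 17.9% to 54.1% elsewhere, a difference that did not pass after adjustment (exact permutation test, two-sided, p = 0.0485, adjusted p = 0.0727 over 6 measures). mml-miR-192-5p followed in the small intestine profiles and in large intestine 1, whereas mml-miR-10b-5p, which is encoded in a HOX gene cluster, was the second most abundant one in large intestine 2.

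The reads of miRNAs with the same seed were also added up. The seed of mml-miR-192-5p and mml-miR-215-5p held 7.42% to 31.7% of the assigned reads in the intestine, and 33.6% in liver, so that liver lay above every intestinal profile. mml-let-7f-5p, the third most abundant miRNA of small intestine 1, had 215241 to 268682 RPTM in the intestine and 425969 to 1249023 RPTM elsewhere, but was not called in the comparison of single miRNAs (log2 fold change -0.66 ± 0.28, SE, edgeR, adjusted p = 0.091). The seed of the let-7 family, which is known for its role in differentiation, took 5.18% to 7.49% in the intestine and 10.8% to 42.2% elsewhere. For the seed of the miR-30 family the share was at most 0.684% in the intestine and 2.69% to 7.87% elsewhere. In both families, each intestinal profile lay below each other profile, on a scale on which the share of mml-miR-143-3p lowers that of all other miRNAs.

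**Figure D1:**
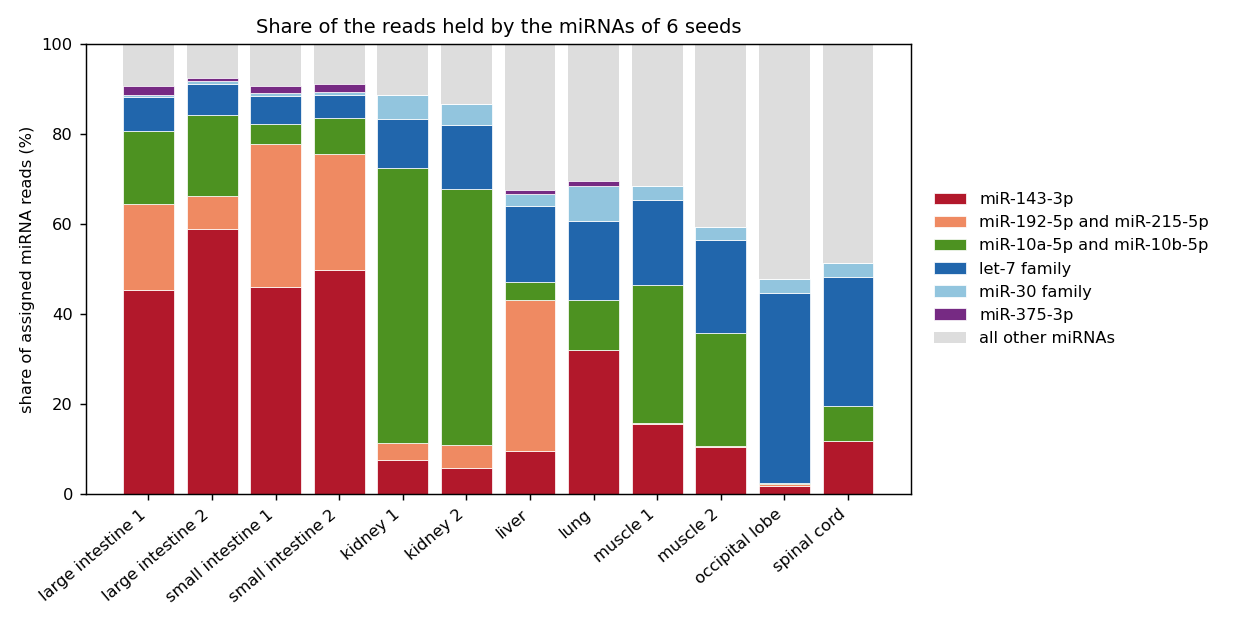
Share of the assigned miRNA reads (vertical axis, %) held by the miRNAs of 6 seeds in each of the 12 profiles (horizontal axis, the 4 intestinal profiles at the left). mml-miR-143-3p fills 45.3% to 58.8% of an intestinal profile and at most 32.0% of any other, and the let-7 and miR-30 families are thinner in the intestine than in every other profile.

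The evenness of a profile can be expressed as the effective number of miRNAs, the number of equally abundant miRNAs that would give the same Shannon entropy. This number was 7.55 and 5.53 in large intestine 1 and 2, and 6.37 and 6.55 in small intestine 1 and 2. In the other profiles it ranged from 7.28 (kidney 1) to 22.4 (spinal cord), with a median of 14.9. The groups overlapped only between large intestine 1 and kidney 1. The mean was 6.50 ± 0.827 (SD, n = 4) in the intestine and 14.5 ± 5.12 (SD, n = 8) elsewhere (exact permutation test, two-sided, p = 0.00808, adjusted p = 0.0162 over 6 measures). With 1 value per tissue, the 2 intestines against 6 tissues gave p = 0.0714 in the exact permutation test, the smallest p that this design allows.

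To see which miRNAs differed, the mean of small and large intestine was compared with the mean of 5 other groups (kidney, liver, lung, muscle and the 2 neural tissues together) on the log scale, so that each group had the same weight. Of the 371 miRNAs, 59 (15.9%) were higher and 74 (19.9%) were lower in the intestine at an adjusted p of 0.05 (edgeR). All 4 intestinal profiles lay above all 8 others in RPTM for 11 miRNAs (2.96%), each of which was called higher. They lay below all others for 41 (11.1%), of which 31 were called lower. Against each of the 5 groups taken alone, 3 miRNAs (0.809%) were higher in every comparison, namely mml-miR-215-5p, mml-miR-215-3p and mml-miR-147b-3p, and 2 (0.539%) were lower in every comparison, namely mml-miR-486-5p and mml-miR-30c-2-3p. Of the 59 higher miRNAs, 12 were significantly lower in the intestine than in at least 1 other group, in 6 cases muscle.

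The scaling between profiles moved these counts. TMM normalization, used here, gave a median log2 fold change of -0.27 over all tested miRNAs. With valid reads in its place the median was -1.003, a shift of -0.73, and 30 miRNAs (8.09%) were higher and 163 (43.9%) lower. The 30 were all among the 59, and the 163 included all 74. The higher miRNAs made up 44.4% of the calls with TMM and 15.5% with valid reads. After TMM scaling, 15 miRNAs (4.04%) were above all others in the 4 intestinal profiles and 6 (1.62%) were below. These 6 were mml-miR-486-5p, mml-miR-30c-2-3p, mml-miR-30a-5p, mml-miR-30d-5p, mml-miR-628-5p and mml-miR-101-3p. When the spread between tissues was taken as the error (2 groups of 4 and 8 profiles), 6 miRNAs were higher (1.62%) and 1 was lower (0.27%), with mml-miR-215-5p, mml-miR-215-3p, mml-miR-143-3p, mml-miR-143-5p, mml-miR-147b-3p and mml-miR-802-5p as the former and mml-miR-486-5p as the latter. Without large intestine 1, 35 were higher and 33 lower. Without small intestine 2, the counts were 39 and 47, and without spinal cord 90 miRNAs were higher. The calls of the miR-143, miR-145, miR-192, miR-194, miR-215 and miR-200 miRNAs and of mml-miR-375-3p, mml-miR-147b-3p, mml-miR-155-5p, mml-miR-486-5p, mml-miR-30a-5p, mml-miR-30d-5p and mml-miR-30c-2-3p held in each of the 12 fits without 1 profile.

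**Figure D2:**
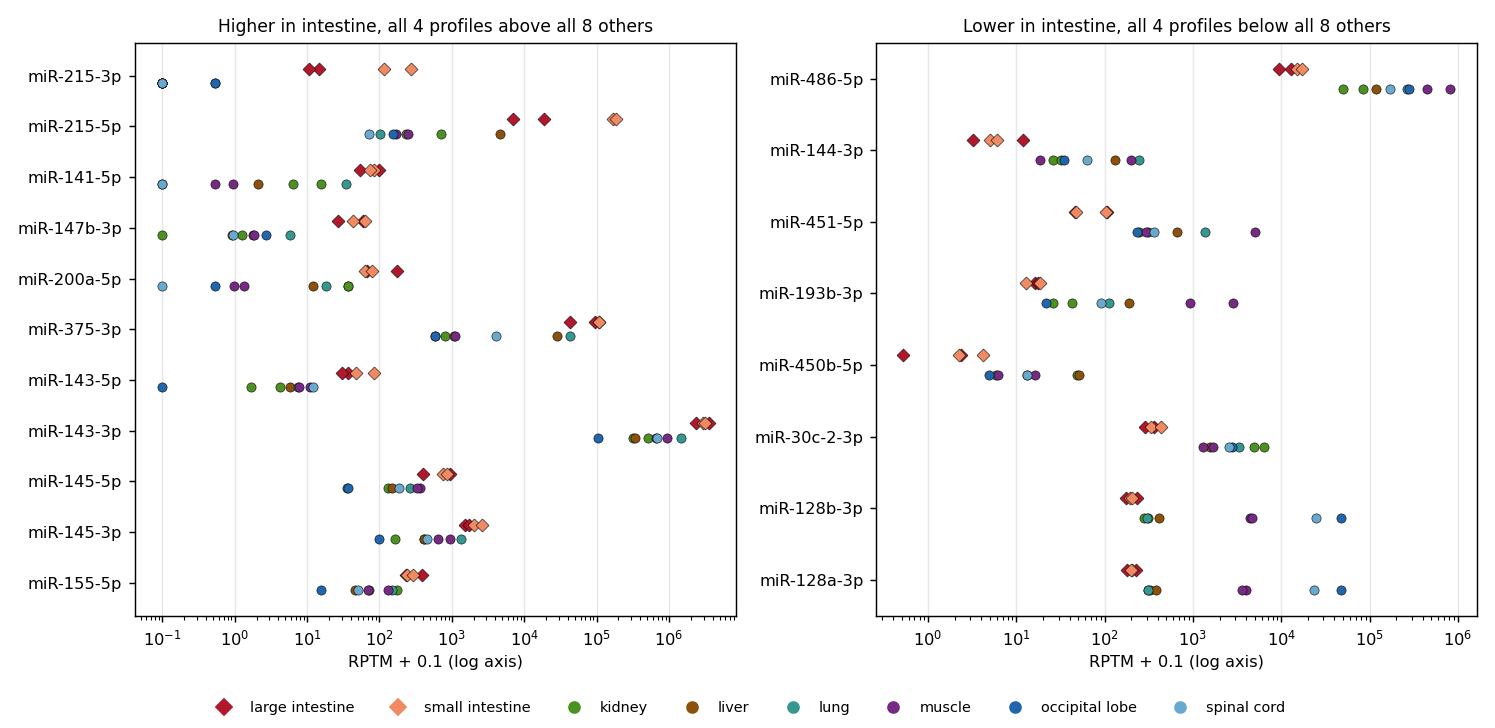
Values of the 11 miRNAs called higher with all 4 intestinal profiles above all 8 others (left) and of the 8 with the largest negative change among those called lower with all 4 below (right). Each point is 1 profile, diamonds for the intestine and circles for the other tissues, on a log axis of RPTM + 0.1. Gaps between diamonds and circles are wide for miR-215-5p (6963 to 183652 RPTM against at most 4653) and narrow for miR-375-3p, where large intestine 2 (42511) and lung (42424) nearly touch.

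The miRNAs of smooth muscle were high throughout the intestine. mml-miR-143-3p had 2345167 and 3567909 RPTM in large intestine 1 and 2 and 2962642 and 3167003 RPTM in small intestine 1 and 2. The other profiles ranged from 103028 (occipital lobe) to 1480577 RPTM (lung), with a median of 587283. All intestinal values were above all others, and the log2 fold change was 3.13 ± 0.47 (SE, edgeR, adjusted p = 8.36e-04). The difference was called against kidney, liver, muscle and the neural tissues, but against lung the log2 fold change was 1.97 ± 0.96 (SE, edgeR, adjusted p = 0.204). mml-miR-145-5p, from the neighbouring gene, had 399, 931, 749.6 and 861 RPTM in large intestine 1, large intestine 2, small intestine 1 and small intestine 2, and 36.0 to 363 RPTM elsewhere. mml-miR-145-3p had 1517 to 2568 RPTM in the intestine and 99.5 to 1329 RPTM elsewhere. mml-miR-143-5p, the rare arm, had 30.6 to 83.1 RPTM against 0 to 12.1 RPTM. All 4 mature miRNAs of the 2 pre-miRNAs were called higher, beside 15.9% of all tested miRNAs. Their median log2 fold change was 3.02 against -0.27 over all tested miRNAs, and for each of them all intestinal values were above all others. Between small and large intestine none of them was called, with log2 fold changes from -0.05 for mml-miR-143-3p to 0.90 for mml-miR-143-5p.

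The miRNAs of the intestinal epithelium, miR-192, miR-194 and miR-215, were all higher in the intestine. mml-miR-215-5p had 18791 and 6963 RPTM in large intestine 1 and 2 and 166876 and 183652 RPTM in small intestine 1 and 2. In the other profiles it ranged from 70.7 (spinal cord) to 4653 RPTM (liver), with a median of 202. Every intestinal value was above every other value, with small intestine above large intestine and liver, whose reads mostly began 1 base later, closest below, and the log2 fold change was 7.79 ± 0.57 (SE, edgeR, adjusted p = 1.23e-05). Of its opposite arm, mml-miR-215-3p, the intestine held 991 reads and the 8 other profiles 2 reads, a ratio per valid read of 1011 with an exact 95% interval from 279 to 8356. Such intervals cover counting error only.

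mml-miR-192-5p, with the same seed, was more abundant but was also high in liver and, at a lower level, in kidney. Kidney 2 had 277153 RPTM and kidney 1 had 649694 reads. In the intestine, mml-miR-192-5p had 978784 and 443632 RPTM in large intestine 1 and 2 and 1873843 and 1445511 RPTM in small intestine 1 and 2. The other profiles ranged from 4096 (lung) to 1203647 RPTM (liver), with a median of 18502, and liver lay between the large and the small intestine. The log2 fold change was 5.33 ± 0.46 (SE, edgeR, adjusted p = 2.08e-05) over all groups and 0.41 ± 0.75 (SE, edgeR, adjusted p = 0.747) against liver alone. mml-miR-194-5p, whose genes neighbour those of miR-192 and miR-215, had 4815 and 2256 RPTM in large intestine 1 and 2 and 23053 and 15874 RPTM in small intestine 1 and 2, and 5880.3 RPTM in liver, the highest of the others. All 5 tested miRNAs of the list were called higher, beside 15.9% of all tested miRNAs, with a median log2 fold change of 5.55. The markers mml-mir-143, mml-mir-192 and mml-mir-215 were thus high in all 4 profiles labelled as intestine, although liver lay within the intestinal range of mml-miR-192-5p.

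Members of the miR-200 family, which is known to keep epithelial cells from turning mesenchymal, were higher in the intestine as well. The list held 4 of its pre-miRNAs, those of miR-200a, miR-200c, miR-141 and miR-429, and miR-200b was not on it. All 6 tested miRNAs of these 4 pre-miRNAs were called higher, beside 15.9% of all tested miRNAs, with a median log2 fold change of 5.12. mml-miR-429-3p had 3185 and 1149.9 RPTM in large intestine 1 and 2 and 2479 and 1495 RPTM in small intestine 1 and 2. In the other tissues it was highest in kidney 1 (1508 RPTM) and had 1.25 RPTM in spinal cord. mml-miR-141-3p, the most abundant of those listed, had 2245 to 7969.7 RPTM in the intestine and 9354 RPTM in lung, above all 4 intestinal profiles. Its log2 fold change was 4.43 ± 0.49 (SE, edgeR, adjusted p = 1.07e-04) over all groups, 10.06 against the neural tissues and 0.01 ± 0.80 (SE, edgeR, adjusted p = 1) against lung. The summed values of the 4 listed pre-miRNAs were 3850.1 to 11565 RPTM in the intestinal profiles and 11.3 to 10664 RPTM in the others. mml-miR-141-5p and mml-miR-200a-5p, the less abundant arms, were above all other profiles in the 4 intestinal ones, with 54.4 to 99.0 RPTM against 0 to 34.1 RPTM and 63.0 to 177 RPTM against 0 to 36.4 RPTM. The listed members were thus present in lung and kidney too and low in muscle and neural tissues.

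Endocrine miRNAs were higher too. mml-miR-375-3p, which is known from the pancreatic islet and other hormone-secreting cells, had 95210.3 and 42511 RPTM in large intestine 1 and 2 and 108889.7 and 107201 RPTM in small intestine 1 and 2. The other profiles ranged from 575 (muscle 2) to 42424 RPTM (lung), with a median of 1082. All intestinal values were above all others, although large intestine 2 exceeded lung by little, and the log2 fold change was 4.94 ± 0.53 (SE, edgeR, adjusted p = 1.01e-04). Against lung and liver alone, it was 1.96 ± 0.97 and 2.16 ± 0.99 (SE, edgeR, adjusted p = 0.212 and 0.131). mml-miR-7-5p, the other tested miRNA of the list, was called higher at 4.64 to 12.3 RPTM in the intestine against 0 to 25.1 RPTM elsewhere, with the highest value in spinal cord. Both tested miRNAs of the list were thus called higher, beside 15.9% of all tested miRNAs.

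Among 5 tested miRNAs listed as epithelial or digestive, 3 were called higher, beside 15.9% of all tested miRNAs. mml-miR-147b-3p had 59.2 and 26.4 RPTM in large intestine 1 and 2 and 63.8 and 43.0 RPTM in small intestine 1 and 2, and at most 5.68 RPTM (lung) elsewhere. Its log2 fold change of 5.64 ± 0.55 (SE, edgeR, adjusted p = 4.55e-05) was called against each of the 5 groups. mml-mir-203-3p, which is known from skin and other covering epithelia, had 292 to 1029 RPTM in the intestine and 3364 RPTM in lung. mml-miR-802-5p, known from liver and intestine, was called higher as well, but its reads came from the small intestine and the call was lost without large intestine 2. mml-miR-205-5p, which marks squamous and basal epithelium, had a single read in the 4 intestinal profiles, and mml-miR-31-5p was not called (log2 fold change 0.37 ± 0.41, SE).

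Of the miRNAs encoded in HOX gene clusters, which follow the position along the body axis, 3 of 7 were called higher and none lower, beside 15.9% and 19.9% of all tested miRNAs, with a median log2 fold change of 2.04. mml-miR-10a-5p was abundant, with 371149 and 323965 RPTM in large intestine 1 and 2 and 143916 and 270069 RPTM in small intestine 1 and 2, but the other profiles ranged from 1146 (occipital lobe) to 480356 RPTM (kidney 1), with a median of 138726. mml-miR-10b-5p had 136781 to 773620.4 RPTM in the intestine and 3705808 RPTM in kidney 1. Neither was called (edgeR, adjusted p = 0.117 and 0.159). mml-miR-196a-5p and mml-miR-196b-5p were called higher with log2 fold changes of 4.16 and 3.12 over the 5 groups, although the highest values of both were in muscle or large intestine and those of liver and occipital lobe were near 0. The third call was mml-miR-10a-3p (log2 fold change 2.04), which was lost without large intestine 1 or small intestine 2. Against kidney and muscle only (8 numbered profiles), the fold changes of both turned negative, to -1.95 and -1.58 (edgeR, adjusted p = 0.0593 and 0.065).

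Several miRNAs of blood-derived cells differed, in both directions. Of 8 tested miRNAs of immune cells, 5 were called higher, beside 15.9% of all tested miRNAs, with a median log2 fold change of 1.36. mml-miR-155-5p, which is induced in activated lymphocytes and macrophages, had 231 and 381 RPTM in large intestine 1 and 2 and 239 and 288 RPTM in small intestine 1 and 2. It ranged from 15.6 (occipital lobe) to 177 RPTM (kidney 1), with a median of 70.4 elsewhere, so that all intestinal values were above the others, and the log2 fold change was 2.64 ± 0.37 (SE, edgeR, adjusted p = 5.36e-04). mml-miR-146a-5p, a regulator of inflammatory signalling, and mml-miR-142-5p, which is found throughout the blood lineages, had log2 fold changes of 2.12 and 1.82. The list as a whole summed to 9869 to 17389 RPTM in the intestinal profiles and 6805 to 25559.9 RPTM in the others. mml-miR-150-5p of mature lymphocytes was called higher with TMM factors (log2 fold change 0.91) but not with valid reads (0.16), nor without large intestine 2, liver or small intestine 2.

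The miRNAs of red blood cells were lower. mml-miR-486-5p, abundant in red cells and in muscle, had 9347 and 12857 RPTM in large intestine 1 and 2 and 15116 and 17119 RPTM in small intestine 1 and 2. The other profiles ranged from 50449 (kidney 1) to 815651 RPTM (muscle 2), with a median of 218328. All intestinal values were below all others, and the log2 fold change of -3.16 ± 0.39 (SE, edgeR, adjusted p = 2.70e-04) was called against each of the 5 groups. mml-miR-451-5p, which is characteristic of the red cell lineage, had 46.1, 105, 47.1 and 102 RPTM in large intestine 1, large intestine 2, small intestine 1 and small intestine 2, and 234 to 5006 RPTM elsewhere (log2 fold change -2.50 ± 0.69, SE, edgeR, adjusted p = 0.0193). mml-miR-144-3p, from the same cluster, had 3.16 to 11.9 RPTM against 18.4 to 242 RPTM (log2 fold change -3.01 ± 0.69, SE). In all, 4 of 5 miRNAs of the list were called lower and none higher, beside 19.9% and 15.9% of all tested miRNAs, with a median log2 fold change of -2.50. The 5 include mml-mir-486-3p (called lower) and mml-miR-486-3p (not called), near-identical copies. In the intestine, 64% to 96.6% and 93.1% to 100% of their reads were also counted for another mature miRNA, so that they are not independent. The call of mml-mir-486-3p was lost with identical reads only. Without large intestine 1, the adjusted p of mml-miR-144-3p became 0.0512 and that of mml-miR-451-5p 0.0908 (edgeR), and the latter was also lost without small intestine 1. How much of this difference goes with the amount of blood in the samples was not tested. mml-miR-126-3p of endothelial cells moved in the same direction, with 325 to 444 RPTM in the intestine and 493 to 9051 RPTM elsewhere (log2 fold change -1.59 ± 0.27, SE, edgeR, adjusted p = 0.00179).

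The miR-30 miRNAs, which are known from kidney, lung and other differentiated tissues, were lower in the intestine. They were not on a list, and those other than mml-miR-30c-2-3p are named after their values were seen. mml-miR-30a-5p had 20489 and 29883 RPTM in large intestine 1 and 2 and 29365 and 34598 RPTM in small intestine 1 and 2. It ranged from 67490.0 (liver) to 339219.6 RPTM (kidney 1), with a median of 147884 elsewhere, and no intestinal value reached another tissue (log2 fold change -1.81 ± 0.27, SE, edgeR, adjusted p = 8.05e-04). mml-miR-30d-5p had 4230.0 to 7820.4 RPTM against 19241 to 39187 RPTM (log2 fold change -1.40 ± 0.22, SE). Of 5 miRNAs with this seed, 4 were called lower, beside 19.9% of all tested miRNAs. These were mml-miR-30a-5p, mml-miR-30b-5p, mml-miR-30c-5p and mml-miR-30d-5p, whereas mml-miR-30e-5p had a log2 fold change of -0.52 ± 0.20 (SE, edgeR, adjusted p = 0.0686). The calls of mml-miR-30b-5p and mml-miR-30c-5p were lost without large intestine 1 (edgeR, adjusted p = 0.0567 and 0.111), and that of mml-miR-30c-5p also without kidney 1, either small intestine profile or spinal cord. mml-miR-30c-2-3p had 282 to 436 RPTM in the intestine and 1287 to 6351 RPTM elsewhere (log2 fold change -2.13 ± 0.24, SE, edgeR, adjusted p = 1.07e-04), with kidney highest.

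The other miRNAs among the 8 with the largest decreases were mml-miR-193b-3p, mml-miR-450b-5p, mml-miR-128a-3p and mml-miR-128b-3p. mml-miR-193b-3p had 16.3, 17.4, 18.4 and 12.7 RPTM in large intestine 1, large intestine 2, small intestine 1 and small intestine 2, and 21.7 to 2807 RPTM elsewhere, with muscle highest (log2 fold change -2.47 ± 0.45, SE, edgeR, adjusted p = 0.00268). mml-miR-450b-5p was rare, with 0.425 to 4.09 RPTM against 4.78 to 51.2 RPTM, and its call was lost without large intestine 1, large intestine 2, small intestine 1, small intestine 2, liver or muscle 1 (edgeR, adjusted p up to 0.112). mml-miR-128a-3p, a miRNA of neurons, had 176 to 228 RPTM in the intestine, 307 to 385 RPTM in lung, kidney and liver and 46860.4 RPTM in occipital lobe. Between 79.5% and 85.7% of its reads in the intestine were also counted for mml-miR-128b-3p, so that the 2 are not independent.

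The remaining lists showed smaller differences. Of 11 tested miRNAs of the clusters that accompany cell proliferation, 5 were called higher (mml-miR-17-5p, mml-miR-18a-5p, mml-miR-19a-3p, mml-miR-20a-5p and mml-miR-93-5p), beside 15.9% of all tested miRNAs, with log2 fold changes of 0.86 to 1.86, and lung was above all intestinal profiles for 4 of these, mml-miR-18a-5p being the exception. With valid reads in place of TMM factors none of the 5 was called, and 4 of them, all but mml-miR-19a-3p, were lost without large intestine 1. Of 5 stromal miRNAs, mml-miR-199a-3p and mml-miR-199a-3-5p were called higher, beside 15.9% of all tested miRNAs (log2 fold changes 1.08 and 1.497), again not with valid reads, and both calls were lost without large intestine 1, large intestine 2 or small intestine 2. Among 3 miRNAs of the miR-183 cluster, only mml-miR-182-5p was called higher, beside 15.9% of all tested miRNAs (log2 fold change 2.13 ± 0.66, SE, edgeR, adjusted p = 0.0301). It had 25905 to 97609.6 RPTM in the intestine against 1897 to 64982 RPTM elsewhere, and the call was lost without any of 7 single profiles, among them all 4 intestinal ones.

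Some defining miRNAs of the other organs were near 0 in the intestine, and others were not. mml-miR-122a-5p of hepatocytes had 1.23 to 2.26 RPTM in the intestine and 7320.2 RPTM in liver. Of the 2 tested miRNAs of the liver list it was the one called lower, beside 19.9% of all tested miRNAs. None of 3 miRNAs of the airway list was called. mml-miR-124a-3p of neurons had 3.27 to 4.07 RPTM and 10508 RPTM in occipital lobe, and mml-miR-208b-3p of muscle had 0.452 to 4.25 RPTM and 5326 RPTM in muscle 2. mml-miR-9-5p, a miRNA of neural progenitors and neurons, was not near 0. It had 643 and 840.0 RPTM in large intestine 1 and 2 and 939 and 988 RPTM in small intestine 1 and 2, above kidney, liver, lung and muscle (169 to 294 RPTM) and far below occipital lobe (383871 RPTM). Its log2 fold changes were between 2.11 (edgeR, adjusted p = 0.0036) against kidney and 2.88 (edgeR, adjusted p = 0.0056) against lung, -6.85 against the neural tissues and 0.54 over all groups (edgeR, adjusted p = 0.0917). The whole neural list summed to 1464 to 1814 RPTM in the intestinal profiles and 1044 to 502337 RPTM in the others, and 3 of its 20 miRNAs were called higher (mml-miR-129-1-5p, mml-miR-132-3p and mml-miR-212-3p) and 6 lower, beside 15.9% and 19.9% of all tested miRNAs, so that the share called higher was near that of all miRNAs. The median log2 fold change of the list was -0.39 against -0.27. Of these 3, mml-miR-129-1-5p lost its call without 10 of the single profiles, and the others without large intestine 1 or small intestine 2. Among the lower ones, mml-miR-128a-5p was lost without 10 single profiles, mml-miR-219-2-3p without 8 and mml-miR-124a-3p without 7, all 4 intestinal ones included in each case (edgeR, adjusted p up to 0.16, 0.149 and 0.113). The other 3 (mml-miR-128a-3p, mml-miR-128b-3p and mml-miR-138-5p) held without any single profile, and the first 2 share most of their reads. The call of mml-miR-138-5p was lost in the contrast without the neural group and in both fits on the 8 numbered profiles. The call of mml-miR-122a-5p rested on liver, without which its log2 fold change was 0.19.

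mml-miR-128a-3p, given above, and mml-miR-338-3p (95.4 to 221 RPTM in the intestine and 7468 RPTM in spinal cord) were also well above 0.

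mml-miR-133a-3p of striated muscle was not near 0 either, with 645, 911, 666 and 528 RPTM in large intestine 1, large intestine 2, small intestine 1 and small intestine 2. Kidney, liver, lung and occipital lobe had 46.8 to 139 RPTM, spinal cord had 710.3 RPTM and muscle had up to 144690.2 RPTM. Of the 8 tested miRNAs of the skeletal muscle list, 3 were called higher (mml-miR-133a-3p, mml-miR-1-3p and mml-miR-133c-3p, the last of which takes nearly the same reads as the first) and 1 lower (mml-mir-499-5p, log2 fold change -2.20), beside 15.9% and 19.9% of all tested miRNAs. Counted once for the shared reads, 2 of 7 were higher. The call of mml-miR-133a-3p (edgeR, adjusted p = 0.0462) was lost without any 1 of 10 profiles, occipital lobe and spinal cord being the 2 without which it held, and that of mml-miR-1-3p without large intestine 1, liver or small intestine 1. None of the 3 was called with valid reads, and their direction turned when 4 intestinal and 8 other profiles were compared as 2 groups (log2 fold changes of -3.40 for mml-miR-1-3p and -5.22 for mml-miR-133a-3p, edgeR, adjusted p = 0.302 and 0.204). Against kidney and muscle only (8 numbered profiles), mml-miR-133a-3p and its near copy were called lower, with a log2 fold change of -1.77 (edgeR, adjusted p = 1.53e-04). mml-miR-1-3p begins with the same bases as the 3′ adapter, and whether its reads were lost in adapter removal was not tested.

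**Figure D3:**
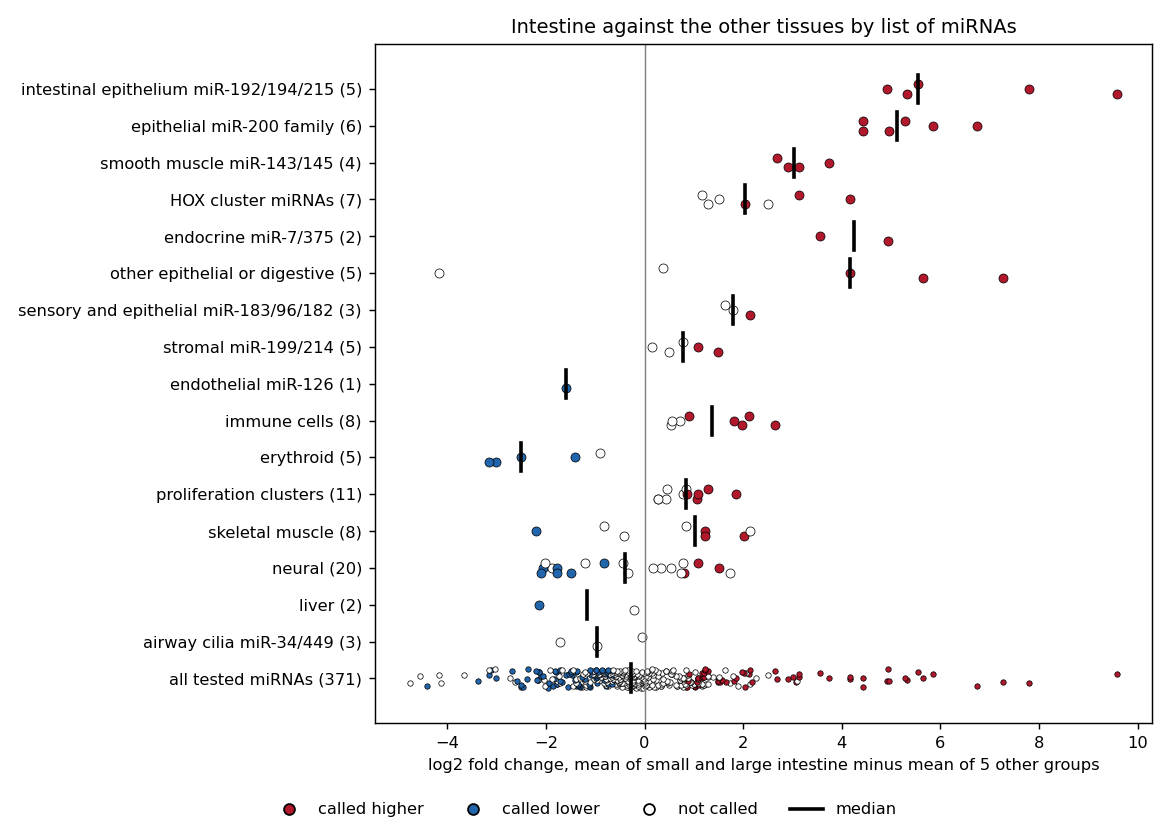
Log2 fold change of each tested miRNA of 16 lists (horizontal axis, mean of small and large intestine minus mean of the 5 other groups, TMM scale). Points are filled where called and the black bar is the median, with all 371 tested miRNAs in the lowest row. Every tested member of the lists of intestinal epithelium (5), the miR-200 family (6), smooth muscle (4) and endocrine cells (2) is called higher, and 4 of 5 erythroid miRNAs are called lower.

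The number of calls depended on the tissue set against the intestine. The intestine had 18 miRNAs higher (4.85%) and 32 lower (8.63%) than lung, 31 (8.36%) and 53 (14.3%) against kidney, and 40 (10.8%) and 50 (13.5%) against liver. Against muscle the counts were 49 (13.2%) and 93 (25.1%), and against the neural tissues 88 (23.7%) and 151 (40.7%). The comparisons share the 4 intestinal profiles, and those with lung and liver rest on 1 profile whose spread was taken from the other groups. Without lung, 13 miRNAs were higher against every remaining group, and without liver 6, in place of the 3 named above. Without occipital lobe or spinal cord there were 10 in either case, and without kidney 2, 1 miRNA was lower against every group. Taken apart, small intestine had 48 miRNAs higher (12.9%) and 45 lower (12.1%) than the other groups, and large intestine 40 (10.8%) and 37 (9.97%). In both intestines, 30 (8.09%) were higher and 22 (5.93%) lower. The 22 fell to between 3 and 12 without 1 of the intestinal profiles, and the 30 rose to 53 without spinal cord.

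Next, small and large intestine were compared with each other. Of 371 miRNAs, 6 (1.62%) were higher in small intestine and 1 (0.27%) in large intestine (edgeR), and 25 had an unadjusted p under 0.05. mml-miR-31-5p, which is known from the renewal of the intestinal epithelium, had 3781 and 2140.0 RPTM in the small intestine profiles and 2.26 and 11.9 RPTM in the large intestine profiles. The other 8 profiles, at 26.7 to 1422 RPTM, lay between these. The log2 fold change between the intestines was 8.53 ± 0.87 (SE, edgeR, adjusted p = 7.92e-04).

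mml-miR-802-5p was seen almost only in small intestine, with 376 and 103 RPTM. Large intestine had 1 read and small intestine 1164, a ratio per valid read of 1103 with an exact 95% interval from 198 to 43619. mml-miR-196b-5p went the other way, with 1265 and 1117 RPTM in large intestine and 2.46 and 53.6 RPTM in small intestine (log2 fold change -5.40 ± 1.10, SE, edgeR, adjusted p = 0.0385). mml-miR-196a-5p, with a nearly identical sequence from other HOX clusters, did not follow it, at 549, 326, 21.3 and 654 RPTM in large intestine 1, large intestine 2, small intestine 1 and small intestine 2. The 2 small intestine profiles thus differed widely from each other in both miRNAs.

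mml-miR-215-5p and mml-miR-215-3p were higher in small intestine, by log2 fold changes of 3.69 ± 0.77 and 3.79 ± 0.68 (SE, edgeR, adjusted p = 0.0404 and 0.0385), whereas mml-miR-192-5p with its shared seed had 1.12 ± 0.66 (SE, edgeR, adjusted p = 0.867). The last 2 calls, mml-mir-486-3p and mml-miR-486-3p, come from near-identical copies that share most of their reads, with 11.3 to 12.3 RPTM for the former in large intestine and 71.2 to 93.6 RPTM in small intestine. Of the 7 calls, only that of mml-miR-31-5p held when any single profile was left out. Without kidney 1 or kidney 2, 3 miRNAs were higher in small intestine, without muscle 1, muscle 2 or small intestine 2 there were 2, and without large intestine 1, large intestine 2 or small intestine 1 there was 1. In large intestine, 0 were higher without any 1 of the kidney, muscle and large intestine profiles, and 2 without occipital lobe, spinal cord or small intestine 2.

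**Figure D4:**
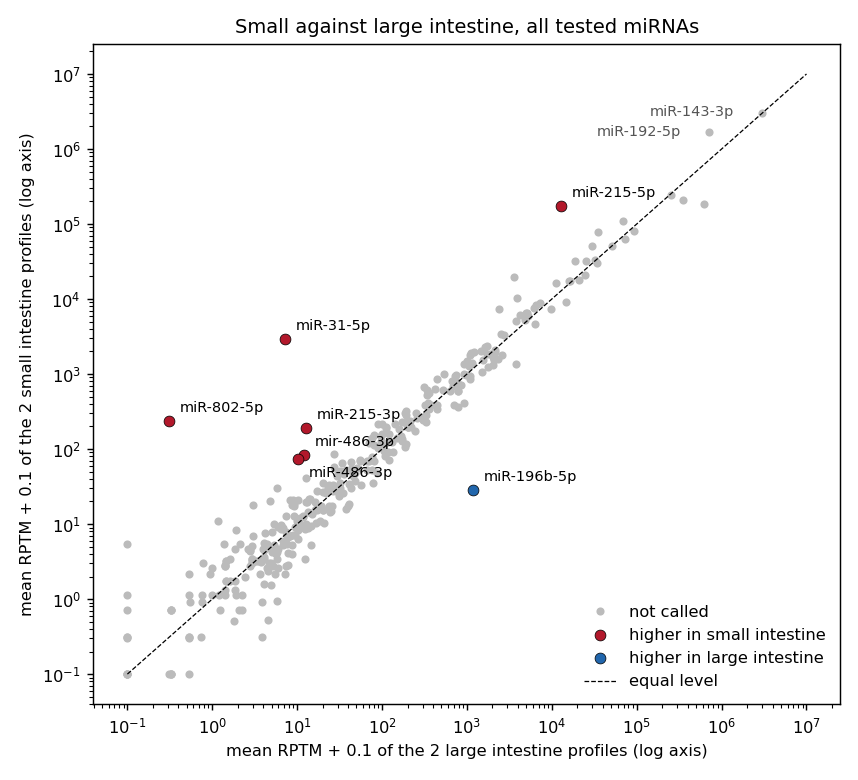
Mean level in the 2 small intestine profiles (vertical axis) against the mean in the 2 large intestine profiles (horizontal axis) for the 371 tested miRNAs, in RPTM + 0.1 on log axes. The called miRNAs are coloured and most others lie near the line of equal level, among them miR-143-3p, whereas miR-31-5p and miR-802-5p lie far above it and miR-196b-5p far below.

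The ratio of the 2 arms of a pre-miRNA does not depend on the scaling between profiles. Of 77 pre-miRNAs with enough reads on both arms, 5 (6.49%) had a higher and 3 (3.9%) a lower ratio of 5p to 3p reads in the intestine (limma). In mml-mir-30c-2, the 3p arm made up 32.1% to 52.0% of the reads in the intestine and 49.1% to 73.6% elsewhere, and the log2 ratio differed by 1.21 ± 0.32 (SE, limma, adjusted p = 0.0421). In mml-mir-128a the difference was 1.22 ± 0.23 (SE, limma, adjusted p = 0.0116), and in mml-mir-125b-1 1.20 ± 0.29. The 3p arm of mml-mir-128a took 88.7% to 92.3% in the intestine, within the 82.8% to 99.2% of the other profiles, and most of its reads also count for mml-miR-128b-3p. For mml-mir-125b-1 the 3p share was 95.8% to 97.5% in the intestine and 95.9% to 99.6% elsewhere. The largest difference, 2.56 ± 0.32 in mml-mir-197, rests on few reads of the 5p arm, which had 6.14 to 9.04 RPTM in the intestine.

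Both copies of mml-mir-486 had a lower ratio, with log2 differences of -2.21 and -1.75 (limma, adjusted p = 0.0051 and 0.0116). The log2 fold changes of the arms themselves were -3.16 for mml-miR-486-5p, -1.40 for mml-mir-486-3p and -0.91 for mml-miR-486-3p. In mml-mir-16-2 the 3p arm took 2.31% to 3.59% of the reads in the intestine and 0.741% to 2.48% elsewhere (log2 difference -1.10 ± 0.29, SE, limma, adjusted p = 0.0421). The 5p sequences of mml-mir-30c-2 and mml-mir-16-2 also occur in other pre-miRNAs, whose reads are included. Without 1 profile, the higher ratios numbered 3 (kidney 1, large intestine 1 or muscle 2), 2 (small intestine 1) or 1 (large intestine 2 or small intestine 2), and the lower ones 1 (small intestine 1) or 0 (small intestine 2).

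Finally, bases added to the 3′ end without a template were examined. Over all miRNA reads, 8.83% and 12.1% carried a U tail of at most 2 bases in large intestine 1 and 2, and 11.8% and 10.6% in small intestine 1 and 2. The shares elsewhere were 2.26% to 8.34%. A tails were on 3.17% to 4.09% of the reads in the intestine and 6.17% to 12.1% elsewhere. Neither pair of groups overlapped (exact permutation test, two-sided, p = 0.00404 for each, the smallest p possible with 4 against 8 profiles, adjusted p = 0.0121 over 6 measures). With 1 value per tissue, p was 0.0714 in the exact permutation test.

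These shares moved with the miRNAs that dominated the profiles. mml-miR-143-3p alone carried U tails on 16.4% to 19.4% of its reads in the intestine and on 15.7% to 19.97% elsewhere, and A tails on 0.779% to 1.05% and 0.976% to 2.05%. Without mml-miR-10a-5p, mml-miR-143-3p, mml-miR-10b-5p and mml-miR-192-5p, a step chosen after the data were seen, U tails were on 2.15% to 2.80% of the reads in the intestine and on 2.79% to 9.43% elsewhere, so that the intestine turned to the lower side (difference of -2.02 percentage points, exact permutation test, p = 0.00808). The difference in A tails became 0.254 percentage points (exact permutation test, p = 0.804). Taken miRNA by miRNA, a test also added after the data were seen, none of 114 miRNAs differed in A tails (0% called) and none of 104 in U tails (0% called) by limma, with 10 and 19 at an unadjusted p under 0.05.

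**Figure D5:**
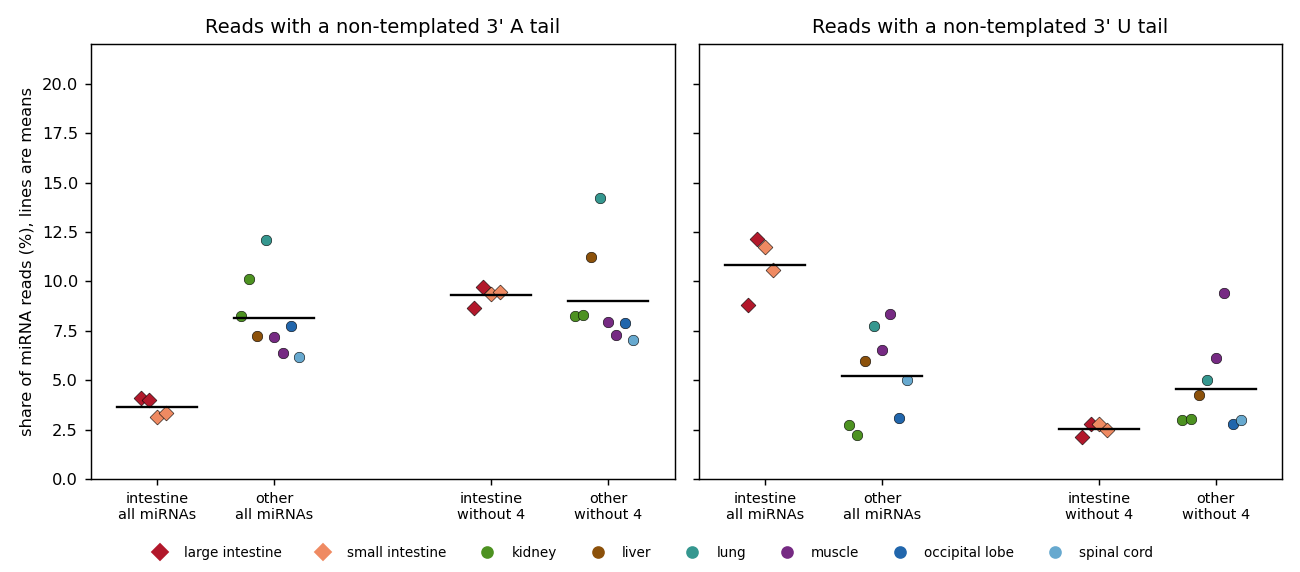
Share of miRNA reads (vertical axis, %) with a non-templated 3′ A tail (left) or U tail (right), over all miRNAs and without miR-143-3p, miR-10a-5p, miR-192-5p and miR-10b-5p. Each point is 1 profile and lines are means of 4 intestinal and 8 other profiles. The groups lie apart over all miRNAs (A tails at most 4.09% in the intestine), and the gap closes or turns without these 4 miRNAs.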

How the data were processed

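Small RNAs were sequenced from 8 tissues in 12 profiles. The deposited files hold read counts per unique sequence, not normalized and not aligned. According to the study's methods, the authors kept reads with quality scores of at least 30 over the first 25 bases, removed the 3′ adapter and kept sequences of at least 18 bases. As the adapter begins with the bases that open miR-1, reads of that miRNA could be lost, which was not tested.

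The study's list was read only in part, as 832 pre-miRNAs, fewer than the study reports. miRNAs of the remaining pre-miRNAs were not counted, and all shares and counts refer to this part. Reads were assigned to a mature miRNA of these pre-miRNAs when they matched the pre-miRNA exactly with both ends within 2 bases of the mature miRNA. A read that fits several miRNAs counted for each. Levels are reads per 10000000 valid reads (RPTM). miRNAs that averaged 5 RPTM or more, with an SD no smaller than 1, entered the edgeR 4.0.16 quasi-likelihood test (R 4.3.3, TMM factors of 0.623 to 2.49, 0.670 to 0.814 in the intestine) in 7 groups, occipital lobe and spinal cord forming one, with Benjamini-Hochberg adjustment and a threshold of 0.05. Groups were weighted equally. Arm ratios used limma 3.58.1 on log2 ratios with 0.5 added to each count, for pre-miRNAs with at least 10 reads on each arm in at least 6 profiles. Values per profile used exact permutation tests (scipy 1.17.1). A 3′ tail was 1 or 2 added A or U bases that the pre-miRNA does not encode. Ratios of reads have exact (Clopper-Pearson) 95% intervals.

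Named miRNAs were those with the largest called changes whose groups did not overlap (up to 12 higher, of which 11 qualified, and 8 lower), members of 16 lists of tissue and cell type miRNAs, the 3 most abundant of each intestine, the 4 largest called changes each way between the intestines and of the arm ratio. The profiles compared and the lists were chosen with earlier results of these data known. Alternatives were other scaling, DESeq2 1.42.0, other filters, read assignments and groups, a replicate block and leaving out each profile. On simulated counts of 371 miRNAs for intestine against other tissues, 96% of 100 miRNAs changed 8-fold were recovered with 5 false calls. Apart from this change, the simulated tissues had the same mean levels, unlike the real ones, and smaller changes were not simulated. The false calls therefore give no error rate for the calls reported here.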

Additional observations from a re-analysis of the deposited data

Results flagged for a closer look

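Among the miRNAs named or listed, 104 could be checked for a single intestinal profile far from the other 3, and 7 of them (6.73%) had one, where chance alone gives about 1 in 20. Large intestine 1 stood apart with 177 RPTM of mml-miR-200a-5p, 2.26 RPTM of mml-miR-34c-5p and 0.452 RPTM of mml-miR-129-1-3p. Large intestine 2 did so with 12.3 RPTM of mml-miR-10b-3p, small intestine 1 with 0.409 RPTM of mml-miR-205-5p and 1.23 RPTM of mml-miR-206-3p, and small intestine 2 with 17.3 RPTM of mml-miR-214-3p. mml-miR-200a-5p is the one called higher in the intestine, and its other intestinal values were 63.0, 66.3 and 78.0 RPTM. The values below 1 RPTM stand for 1 read each. For mml-miR-129-1-3p, mml-miR-205-5p and mml-miR-206-3p the other 3 intestinal values were equal, so that the rate of 1 in 20 does not hold for them.

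The 7 miRNAs called between small and large intestine also differ in how far each intestine lies from the other tissues, since that difference is the same contrast. The log2 differences (small minus large, edgeR) were 8.53 for mml-miR-31-5p, 9.72 for mml-miR-802-5p, 3.69 for mml-miR-215-5p, 3.79 for mml-miR-215-3p, 2.71 for mml-mir-486-3p, 2.79 for mml-miR-486-3p and -5.40 for mml-miR-196b-5p. For mml-miR-31-5p the mean over both intestines hides opposite positions, as small intestine differed from the other groups by a log2 fold change of 4.64 (edgeR, adjusted p = 5.80e-05) and large intestine by -3.90 (edgeR, adjusted p = 0.0027).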

How the results depend on the processing

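Among the named miRNAs, 1244 repeats kept direction and call, 262 kept direction but lost the call and 25 turned. The 59 higher miRNAs became 30 with valid reads in place of TMM factors, 91 with DESeq2, 90 with 8 tissues as groups and 6 with 2 groups, and the 74 lower ones became 163 with valid reads, 41 with no filter and 1 with 2 groups. Leaving out 1 profile gave 35 to 90 higher and 33 to 74 lower. In both intestines, the 30 higher became 58 with 8 tissues, and the 22 lower became 97 with valid reads, 10 with no filter and 38 with 8 tissues (21 to 53 and 3 to 33 without 1 profile). Against every group, the 3 higher became 13 with DESeq2, 1 at a mean of at least 50 RPTM and 9 with 8 tissues, and the 2 lower became 13 with valid reads, 1 with no filter and 1 with identical reads only (2 to 13 and 1 to 3 without 1 profile). Between the intestines, the 6 higher in small became 1 at a mean of at least 50 RPTM and 2 with identical reads, and the 1 higher in large became 0 at that mean (1 to 7 and 0 to 2 without 1 profile). Of the arm ratios, 1 was higher and 1 lower with identical reads (1 to 5 and 0 to 4 without 1 profile). Fewer miRNAs were tested at the higher minimum. Otherwise the cause was not tested.

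The replicate number was no sign of pairing, with correlations of -0.139 to 0.153 between same-numbered profiles over 6 pairs. On the 8 numbered profiles (intestine, kidney and muscle), the fit with the replicate block gave 50 miRNAs higher in both intestines and 52 lower (48 and 50 with no block), 1 higher in large intestine (2 with no block), and 2 arm ratios higher and 0 lower (2 and 0 with no block).

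With 2 groups, the log2 fold changes turned to -1.12 (mml-miR-196a-5p), -0.044 (mml-miR-199a-3-5p), -0.10 (mml-miR-150-5p), -3.40 (mml-miR-1-3p), -5.22 (mml-miR-133a-3p, mml-miR-133c-3p) and -3.72 (mml-miR-129-1-5p). With the block and without it on the 8 numbered profiles, they turned to -2.04 and -1.95 (mml-miR-196a-5p), -1.71 and -1.58 (mml-miR-196b-5p), -0.010 and -0.10 (mml-miR-199a-3p), -0.66 and -0.65 (mml-miR-1-3p), -1.77 and -1.77 (mml-miR-133a-3p, mml-miR-133c-3p, called lower, edgeR, adjusted p = 4.29e-04 and 1.53e-04) and 0.054 and 0.053 (mml-miR-128a-5p). Without the neural group, mml-miR-124a-3p turned to 0.41 and mml-miR-219-2-3p to 0.27, without liver mml-miR-122a-5p to 0.19 (from -2.44 without lung), and with 8 tissues mml-miR-129-1-5p to -0.27.

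With 1 value per tissue, differences were -4.53 percentage points in A tails, 5.52 in U tails, -9.11 in the effective number and 19.3 points in the top share. Without the 4 dominant miRNAs, A tails turned to 0.254 and U tails to -2.02 points. Leaving out 1 profile moved A tails between -4.76 and -3.92, U tails between 5.17 and 6.26, the effective number between -8.97 and -6.82 and the top share between 14.3 and 20.2. The assigned share moved between 2.43 and 7.92 points and that of reads of 21 to 23 bases between -7.61 and -3.49. Per miRNA, U tails gave 1 call without spinal cord.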

Other observations

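Of the 59 miRNAs called higher in the intestine, 17 were on no list, and of the 74 called lower, 61 were on none. Those below were picked after their values were seen. mml-miR-577-5p had 86.8, 90.1, 270.1 and 159 RPTM in large intestine 1, large intestine 2, small intestine 1 and small intestine 2, against 4.44 to 1398 RPTM elsewhere (log2 fold change 3.02 ± 0.48, SE, edgeR, adjusted p = 9.90e-04). mml-miR-490-3p had 9.95, 17.9, 19.6 and 23.6 RPTM in large intestine 1, large intestine 2, small intestine 1 and small intestine 2, but lung (35.4 RPTM) and spinal cord (61.5 RPTM) were above all intestinal profiles and kidney had no read (log2 fold change 3.08 ± 0.66, SE). mml-miR-21-5p, a miRNA of growing and inflamed tissues, had 56355 to 89274 RPTM in the intestine and 5711 to 116308 RPTM elsewhere (log2 fold change 1.21 ± 0.31, SE, edgeR, adjusted p = 0.0147). mml-miR-28-3p had 15398 to 22037 RPTM against 7949 to 20157 RPTM, and it was among the 15 miRNAs above all other profiles after TMM scaling.

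Several of the miRNAs called lower were rare. mml-miR-940-3p had 0 to 0.452 RPTM in the intestine and 0 to 28.9 RPTM elsewhere, where lung, occipital lobe and spinal cord had 14.9 RPTM or more. mml-miR-211-5p had 0.409 to 7.69 RPTM against 2.19 to 305 RPTM, and its highest value was in kidney 1. mml-miR-95-3p had 0.904 to 5.48 RPTM against 2.02 to 488 RPTM (log2 fold change -2.70 ± 0.43, SE). mml-miR-29c-5p had 0 to 2.98 RPTM against 1.24 to 20.9 RPTM (log2 fold change -2.59 ± 0.77, SE, edgeR, adjusted p = 0.0265). In addition, 4 tested miRNAs (mml-miR-885-3p, mml-miR-656-5p, mml-miR-135a-5p and mml-miR-448-3p) had no read in any intestinal profile, and each was highest in occipital lobe or spinal cord, at 37.2 to 84.1 RPTM.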
